A study of Mus musculus with 8 samples.

Results

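The 9 genes described here encode costimulatory receptors of T cells: Cd28 and Icos of the CD28 family, Cd27, Tnfrsf4 (OX40), Tnfrsf9 (4-1BB), Tnfrsf18 (GITR) and Tnfrsf1b (TNFR2) of the TNF receptor family, and Cd2 and Cd226 (DNAM-1) of the immunoglobulin superfamily. They were taken by name, as receptors of this function, from 55573 genes in the count table, and all 9 were measured and passed the filter on low counts. RNA came from naive CD8+ T cells of male C57BL/6 mice, sorted by flow cytometry out of splenic and lymph node suspensions that had first been enriched with a magnetic CD8a kit. The cells were used ex vivo with no stimulation named. The libraries labelled WT were 3 (1 from mice of 7 weeks, 2 from mice of 8 weeks) and those labelled Furin KO were 5 (1 of 7 weeks, 4 of 8 weeks). FURIN is a protease of the secretory pathway that cleaves precursor proteins to their mature forms. The labels name no Cre driver and no deleted exon, and they do not say whether each library is 1 mouse, so every p-value here reflects variation among libraries, part of which may be technical.

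A naive T cell needs a signal from costimulatory receptors beside the one from its antigen receptor to be fully activated. CD28 is present on resting cells, binds CD80 and CD86 on antigen-presenting cells and signals through PI3 kinase and the adaptor GRB2, whereas ICOS is its relative that is mostly induced by activation. TNF receptor family members bind trimeric ligands and recruit TRAF adaptors that lead to NF-kB; CD27 is already present on naive cells, while OX40, 4-1BB and GITR are known chiefly from activated and regulatory T cells. CD2 binds CD48 in mice and supports adhesion, and CD226 binds CD155 (Pvr) and CD112 (Nectin2), for which inhibitory receptors such as TIGIT and CD96 compete.

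Depth and identity of the libraries bear on all values. Total counts ranged from 11308220 (Furin KO replicate 5) to 21040431, and replicate numbers here only name libraries. Clustering on the distances between their counts, with the number of groups chosen after the data were seen, gave 3 library sets that each contain both genotypes: set 1 held WT replicate 1 and Furin KO replicate 1, which are the libraries of 7 weeks; set 2 held WT replicate 2 and Furin KO replicates 2 and 3; and set 3 held WT replicate 3 and Furin KO replicates 4 and 5. Distances ran from 11.3 to 17.6 within sets and from 17.7 to 41.2 between sets, so the ranges nearly touched. The libraries of set 2 were low in Fos, an immediate early gene, at 85.8 to 204 CPM (a gene's count relative to the TMM-scaled total of its library) against 801 to 1075 CPM in the other 5. The count of Furin itself was no lower under the Furin KO label, at 69.3 ± 11.8 CPM (SD, n = 5) against 63.5 ± 5.71 CPM (n = 3), a log2 fold change of 0.12 (95% interval -0.15 to 0.40). A count over the whole gene cannot tell a deleted exon from a retained one, so it does not check the labels, and every direction below rests on the genotype as labelled ("Furin KO" or "WT"). Cd8a and Tcf7, genes of naive CD8+ T cells, had means of 1689 and 2251 CPM over the 8 libraries. Of the 8 naive markers listed, 0 passed in edgeR, 5 had fold changes above 0 and 3 below, and 1 had an unadjusted p under 0.05: Il7r, the IL-7 receptor alpha chain, at 559 CPM in Furin KO and 686 CPM in WT (log2 fold change -0.29, interval -0.52 to -0.07, adjusted p = 0.9998). Its part in the receptors' levels was not tested.

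The receptors lay on 5 chromosomes, several of them close together (GRCm38, GENCODE M21). Cd28 (ENSMUSG00000026012, chromosome 1, 60716800 to 60773359, plus strand) and Icos (ENSMUSG00000026009, chromosome 1, 60977927 to 61000320, plus strand) were separated by 204.6 kb with 1 protein-coding gene between them, Ctla4, the inhibitory relative that competes for the ligands of CD28. Tnfrsf4 (ENSMUSG00000029075, chromosome 4, 156013843 to 156016612, plus strand) ended 9.6 kb before Tnfrsf18 (ENSMUSG00000041954, chromosome 4, 156026164 to 156028895, plus strand), with no protein-coding gene between. Tnfrsf9 (ENSMUSG00000028965, 150914562 to 150946102, plus strand) and Tnfrsf1b (ENSMUSG00000028599, 145213463 to 145246870, minus strand) lay on the same chromosome 4. Cd27 (ENSMUSG00000030336, chromosome 6, 125232622 to 125237010, minus strand) and Cd2 (ENSMUSG00000027863, chromosome 3, 101275899 to 101287939, minus strand) stood apart from the others. The exons of 2 members overlapped those of another annotated gene. Tnfrsf18 shared 414 bases of exon with an antisense gene, Gm16008, on the opposite strand, and Cd27 shared 129 bases with the microRNA gene Mir8113 on the same strand, so reads in these stretches could belong to either gene.

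The TNF receptor family members spanned the widest range of levels in these cells. A promoter window each of the highest, Cd27, and of the lowest, Tnfrsf9, is printed. Which start of transcription these cells use was not tested. Windows of 5 of the 9 receptors were searched, and none is reported here for the others. Both printed windows come from RefSeq on GRCm38.p6, on the gene's own strand, from 250 bases before to 50 after an annotated start. The Cd27 window is chr6:125236978-125237277 (minus strand) and the Tnfrsf9 window, the downstream one of 2 listed for that gene, is chr4:150927749-150928048 (plus strand). Capitals mark matches, on either strand, to any of the motifs searched, which were the kappaB consensus (the site of NF-kB), TGANTCA (AP-1), TGTGGT (RUNX), TATAAA and CCGGAAG (ETS).
Cd27: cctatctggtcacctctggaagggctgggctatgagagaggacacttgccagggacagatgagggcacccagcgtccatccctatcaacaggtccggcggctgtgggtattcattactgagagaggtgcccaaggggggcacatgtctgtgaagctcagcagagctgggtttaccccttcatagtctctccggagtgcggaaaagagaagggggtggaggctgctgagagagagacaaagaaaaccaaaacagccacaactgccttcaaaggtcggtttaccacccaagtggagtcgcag
Tnfrsf9: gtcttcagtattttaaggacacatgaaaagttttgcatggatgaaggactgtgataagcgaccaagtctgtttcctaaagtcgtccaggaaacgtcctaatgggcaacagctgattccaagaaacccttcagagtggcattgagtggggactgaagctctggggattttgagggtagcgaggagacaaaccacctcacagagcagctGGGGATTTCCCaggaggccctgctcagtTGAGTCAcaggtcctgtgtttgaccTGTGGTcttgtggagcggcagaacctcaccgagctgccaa
The Cd27 window held none of the 5 motifs. The Tnfrsf9 window held a kappaB match, found in 8.46% of 32851 RefSeq promoter windows of this length, whose 11 capital letters are 2 overlapping matches. Further downstream it held a TGANTCA match, found in 7.81% of windows, and a TGTGGT match, found in 16.8%. The upstream Tnfrsf9 window and those of Tnfrsf4 and Tnfrsf18 held none of the motifs, and that of Tnfrsf1b held 1 CCGGAAG match, a motif in 8.86% of windows, while TATAAA, in 13.6% of windows, was in none of the 6. GC content was 56.0% in the Cd27 window and 51.0% in the printed Tnfrsf9 window, against a median of 52.7% over all windows. These are matches of letters, with no measurement of binding.

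Per length, the receptors differed 104-fold in level, with the top and bottom of the order fixed in every library and overlaps in the middle. On the scale of CPM per kb of annotated exon, Cd2 was highest at 253 ± 17.7 (SD, n = 8), followed by Cd27 at 173 ± 11.5. Cd226 stood at 38.9 ± 3.39 and Tnfrsf18 at 36.8 ± 4.70, and Cd226 was above Tnfrsf18 in only 4 of 8 libraries, so these neighbours did not differ beyond their spread. Tnfrsf1b was at 18.8 ± 2.13 CPM per kb, 1.96 times below Tnfrsf18 and lower than it in every library. Tnfrsf1b was above Cd28 in 8 of 8 libraries, although their ranges over all libraries overlapped. Cd28 had 11.9 ± 2.05 and Icos 10.4 ± 1.30 CPM per kb, with Cd28 above Icos in 7 of 8 libraries and their ranges overlapping. Tnfrsf4 followed at 8.52 ± 1.69 CPM per kb, below Icos in 5 of 8 libraries. Tnfrsf9 was lowest at 2.43 ± 0.669 CPM per kb, 3.51 times below Tnfrsf4 with no overlap of their ranges. Cd2 and Cd27, carried by naive cells, stood at the top and 4-1BB and OX40 at the bottom. Per kb, however, GITR stood above CD28, which resting cells carry, and Cd28 lay next to Icos. Without division by length, Cd28 stood above Tnfrsf18, at 72.7 against 56.1 CPM on average, with Icos at 35.6 CPM. Lengths are those of all annotated exons merged (1.365 kb for Tnfrsf4 to 6.122 kb for Cd28), and isoforms that these cells do not use would lower a gene's value on this scale. In bulk samples, a lower level cannot be told apart from fewer cells carrying the transcript.

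**Figure D1:**
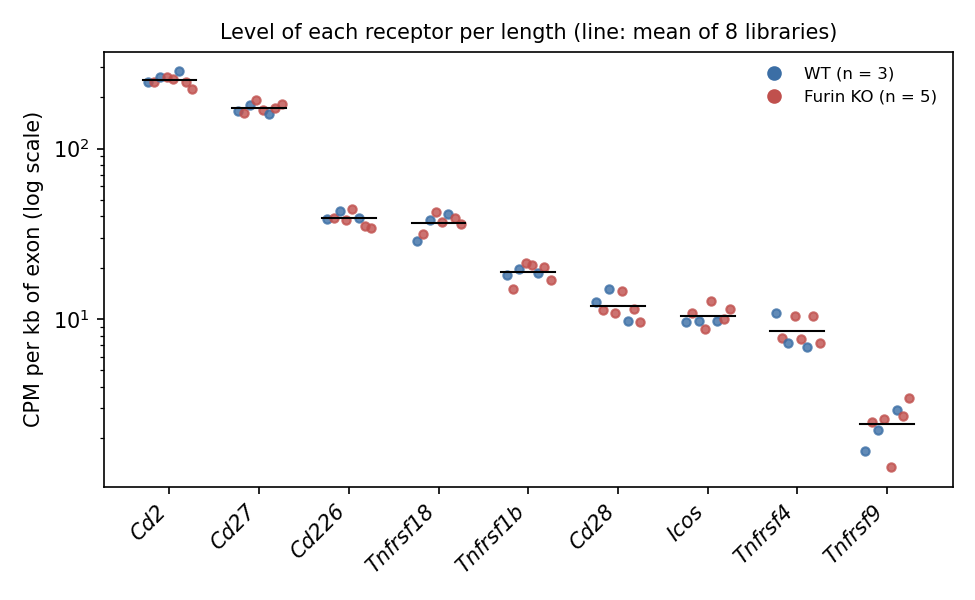
Level of the 9 receptors in CPM per kb of merged annotated exon (log scale), 1 point per library (blue WT, n = 3; red Furin KO, n = 5) and a line at the mean of the 8 libraries. Cd2 and Cd27 lie at 253 and 173, Tnfrsf9 at 2.43, and both genotypes share the range at each gene.

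None of the 9 receptors passed a test of difference between the genotypes. With edgeR (quasi-likelihood, p adjusted by Benjamini-Hochberg across 12500 genes), 0 of 9 members passed at an adjusted p under 0.05, where 0.032% of all genes did (4 genes), and each member had an adjusted p of 0.9998. 0 of 9 had an unadjusted p under 0.05, against 3.21% of all genes, and the genotypes overlapped at all 9, whereas they did not overlap at 2.9% of all genes. DESeq2 also called 0 of 9 members (0.108% of the genes it gave an adjusted p), as did edgeR with the 3 library sets as a factor (0.096% of genes). Fold changes were above 0 for 6 members and below 0 for 3. The median log2 fold change of the members was 0.05 and that of all genes tested -0.00068, and the median size without sign was 0.07 for the members and 0.11 for all genes. All 9 intervals included 0. For 8 of 9 members the 95% interval excluded a change of 1.5-fold in either direction, and for 9 of 9 one of 2-fold. The exception at 1.5-fold was Tnfrsf9, the member with the fewest counts, whose upper bound was 1.69-fold. Summed over the 9 receptors, the level was 1279 ± 62.5 CPM in Furin KO (n = 5) and 1304 ± 60.8 CPM in WT (n = 3), a difference of -25.1 CPM that is smaller than the spread within either group. Most of this sum came from Cd2 and Cd27, at 441 and 402 CPM on average, while Tnfrsf4 and Tnfrsf9 had 11.6 and 6.61 CPM.

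**Figure D2:**
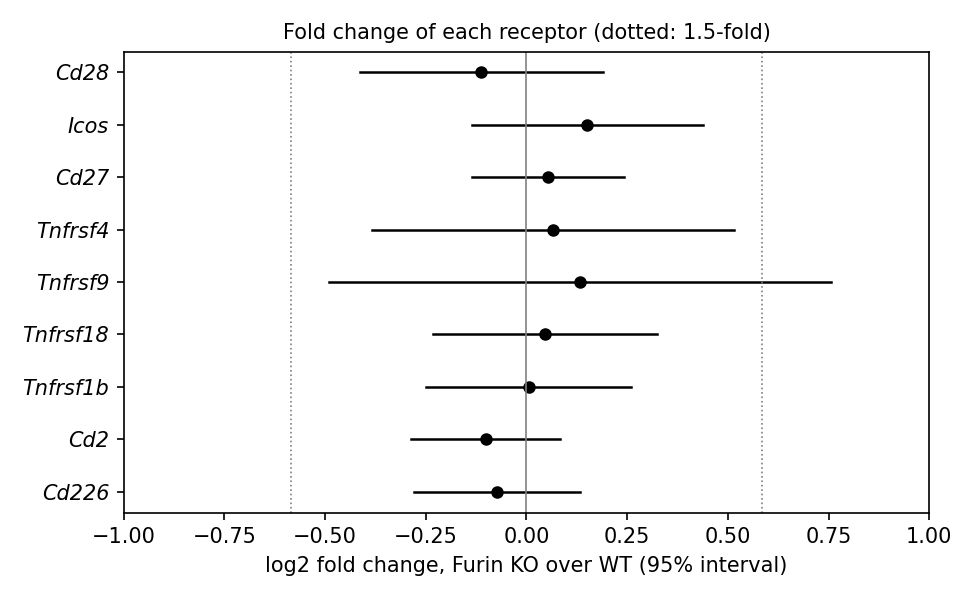
Log2 fold change of each receptor, libraries labelled Furin KO over WT (points), with its 95% interval from the edgeR fit (lines); dotted lines mark 1.5-fold. Every interval crosses 0, and only that of Tnfrsf9 reaches past 1.5-fold.

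In the CD28 family, Cd28 stood at 77.3, 92.2 and 59.4 CPM in WT replicates 1 to 3 and at 68.9, 66.2, 88.9, 70.3 and 58.5 CPM in Furin KO replicates 1 to 5. The highest library was a WT library and the lowest a Furin KO library, but WT replicate 3 lay nearly as low. Cd28 had 70.6 ± 11.2 CPM in Furin KO against 76.3 ± 16.4 CPM in WT, a log2 fold change of -0.11 (SE 0.14, interval -0.41 to 0.19, edgeR adjusted p = 0.9998). Without WT replicate 2, its log2 fold change was 0.05. Icos stood at 33.0, 33.5 and 33.2 CPM in the WT libraries and at 37.4, 29.8, 44.0, 34.2 and 39.5 CPM in the Furin KO libraries. The WT libraries lay within 1 CPM of each other, and 4 of the 5 Furin KO libraries were above all 3 of them, with Furin KO replicate 2 below. Its log2 fold change, 0.15 (SE 0.14, interval -0.13 to 0.44, edgeR adjusted p = 0.9998), was the largest of the members, from 37.0 ± 5.34 CPM in Furin KO against 33.2 ± 0.277 CPM in WT. An exact two-sided permutation test of its log2(CPM + 1) gave p = 0.286, where the smallest p over the 56 arrangements is 0.0179.

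Ctla4, which lies between Cd28 and Icos and is named here after its values were seen, had 2.02 CPM in WT and 5.21 CPM in Furin KO on average, and its genotypes did not overlap, with a lowest Furin KO library of 3.59 CPM and a highest WT library of 3.57 CPM (log2 fold change 1.38, edgeR adjusted p = 0.9998, 584 counts in all libraries together). The adjoining receptors Cd28 and Icos had fold changes of opposite sign and overlapping groups.

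Among the TNF receptor family members, Cd27, the receptor of CD70, had 386, 422 and 373 CPM in WT and 374, 448, 390, 403 and 425 CPM in Furin KO. Its libraries differed by at most 1.2-fold, the narrowest range of the 9 receptors. The log2 fold change was 0.05 (SE 0.09, interval -0.14 to 0.24, edgeR adjusted p = 0.9998), which places any difference between 9.02% lower and 18.3% higher. Tnfrsf1b, the second receptor of TNF, had 69.1, 74.6 and 70.8 CPM in WT and 57.0, 81.0, 79.7, 76.7 and 64.4 CPM in Furin KO. The Furin KO libraries lay on both sides of the WT libraries. Means were 71.8 ± 10.6 and 71.5 ± 2.81 CPM, with a log2 fold change of 0.01 (SE 0.12, interval -0.25 to 0.26).

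Tnfrsf18 (GITR) had 43.5, 58.0 and 63.2 CPM in WT and 48.1, 64.5, 56.6, 59.3 and 55.1 CPM in Furin KO. The lowest library of each genotype was the one from mice of 7 weeks. Its log2 fold change by genotype was 0.05 (SE 0.13, interval -0.23 to 0.32). Tnfrsf4 (OX40), its neighbour on the chromosome, had 14.8, 9.86 and 9.33 CPM in WT and 10.5, 14.1, 10.4, 14.2 and 9.84 CPM in Furin KO. Each genotype had libraries at 9.33 to 10.5 CPM and libraries at 14.1 to 14.8 CPM, and the fewest counts were 112, in Furin KO replicate 5. The log2 fold change was 0.07 (SE 0.21, interval -0.38 to 0.52). Tnfrsf9 (4-1BB) had 4.60, 6.11 and 7.93 CPM in WT and 6.74, 7.04, 3.69, 7.38 and 9.40 CPM in Furin KO. Both the highest and the lowest library were labelled Furin KO, 2.55-fold apart, the widest range of the receptors. With 67 to 155 counts per library, counting error alone at its mean count is 9.22%, against a coefficient of variation of 27.5% between libraries. The log2 fold change was 0.13 (SE 0.30, interval -0.49 to 0.76), an interval that runs from 0.712-fold to 1.69-fold.

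Cd2 had 427, 460 and 494 CPM in WT and 428, 456, 446, 427 and 389 CPM in Furin KO. WT replicate 3 was the highest library and Furin KO replicate 5, the library with the lowest total, the lowest. Means were 429 ± 25.6 and 461 ± 33.4 CPM, with a log2 fold change of -0.10 (SE 0.09, interval -0.29 to 0.08, edgeR adjusted p = 0.9998), the narrowest interval of the 9. Cd226, an activating receptor of CD8+ T cells and NK cells, had 189, 210 and 191 CPM in WT and 192, 187, 215, 171 and 168 CPM in Furin KO. Its 2 lowest libraries were Furin KO replicates 4 and 5 and its highest was Furin KO replicate 3. The log2 fold change was -0.07 (SE 0.10, interval -0.28 to 0.13). Both genes had Furin KO replicate 5 as the lowest library, and without it their log2 fold changes were -0.07 and -0.04.

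**Figure D3:**
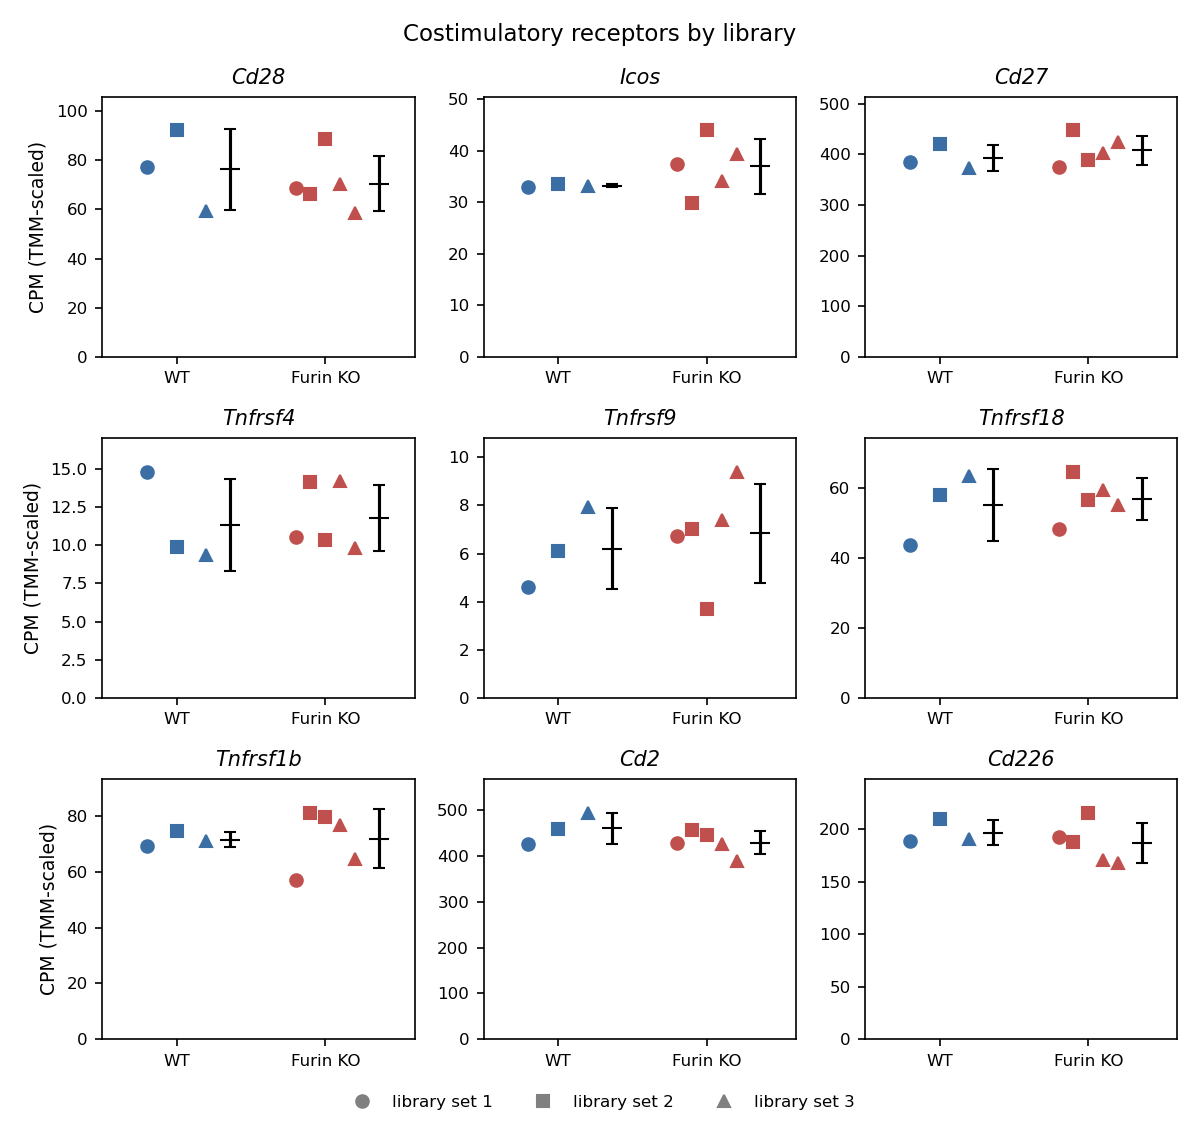
CPM of each receptor in the 8 libraries (y axes start at 0; blue WT, red Furin KO; marker shape gives the library set), with mean and SD of each group in black. The groups overlap in all 9 panels; the 7-week libraries of set 1 are the lowest of each genotype at Tnfrsf18.

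Within the library sets, the direction between genotypes was the same in all 3 sets only for Icos, where the log2 ratio of Furin KO to WT was 0.18, 0.14 and 0.15 in sets 1, 2 and 3. The other 8 receptors were mixed in direction, in some by small ratios. Cd2 had 0.0, -0.03 and -0.28. Tnfrsf4 had -0.49, 0.31 and 0.37, and Tnfrsf9 had 0.55, -0.19 and 0.08, the widest swings among the receptors. Cd28 had -0.17, -0.25 and 0.12. Each set holds 1 WT library and 1 or 2 Furin KO libraries, so these ratios have no replicate check. The share of all genes with the same direction in all 3 sets was not counted, so this pattern does not set Icos apart. With the set as a factor in edgeR, the log2 fold change of Icos was 0.15 (adjusted p = 0.971) and that of Cd2 -0.11 (adjusted p = 0.948, the lowest of the 9 in that fit).

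**Figure D4:**
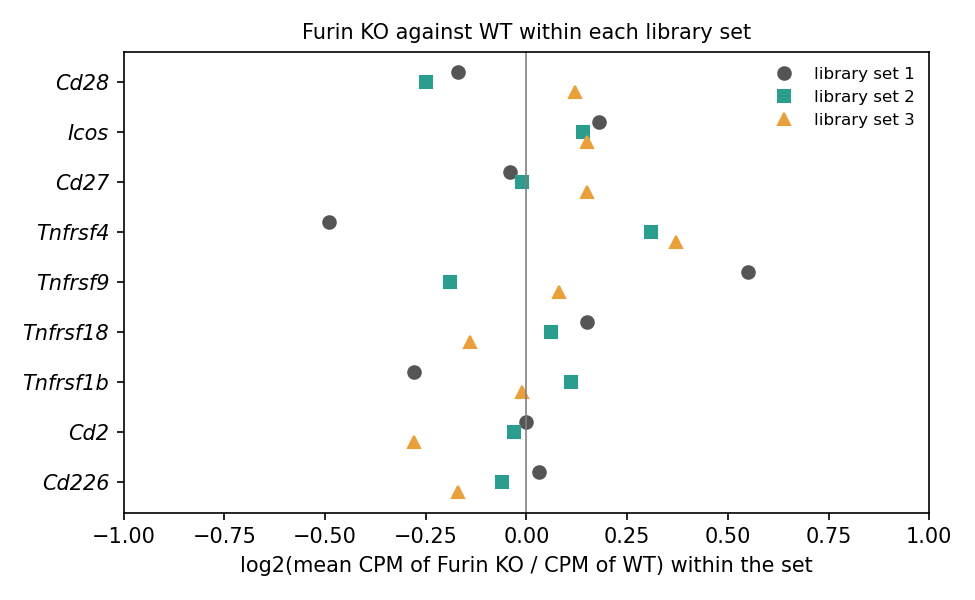
Log2 ratio of the mean CPM of the Furin KO libraries to the CPM of the WT library within each of the 3 library sets, for each receptor. Only Icos lies on the same side of 0 in all sets, at 0.14 to 0.18.

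Age separated 1 of the 9 receptors without overlap, and 0 of 9 passed the test. Tnfrsf18 had 43.5 and 48.1 CPM in the libraries of 7 weeks and 55.1 to 64.5 CPM in the 6 of 8 weeks (59.5 ± 3.73, SD, n = 6). Its log2 difference, 8 weeks minus 7 weeks with genotype in the edgeR fit, was 0.37 (interval 0.13 to 0.62), with an adjusted p of 0.175 over all genes. An exact permutation test (two-sided) gave p = 0.0357, the smallest possible with 2 against 6 libraries. This comparison was added after the values were seen. Ages did not overlap at 16.2% of all genes, and 0.336% passed. Tnfrsf1b had 63.0 CPM on average at 7 weeks and 74.6 ± 6.16 CPM at 8 weeks, with overlapping ages (adjusted p = 0.384). The libraries of 7 weeks are also those of set 1, so age and set cannot be told apart. A test of whether the genotype effect differed between the ages called 0 of 9 receptors (lowest unadjusted p 0.0817, Tnfrsf4) and 0 of 12500 genes in edgeR, with 1 library of each genotype at 7 weeks.

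Pairs of receptors ranged from opposed to parallel across libraries. Over the 8 libraries, which differ in depth, the Pearson correlations of log2(CPM + 1) between pairs of receptors ran from -0.80 (Cd28 with Tnfrsf9) to 0.77 (Cd28 with Cd226). The neighbours Tnfrsf4 and Tnfrsf18 had -0.21 and the neighbours Cd28 and Icos 0.21. The summed level was highest in the 3 libraries of set 2, at 1366 CPM in WT replicate 2 and 1354 and 1334 CPM in Furin KO replicates 2 and 3, and between 1219 and 1301 CPM in the others. Fos was low in these same libraries, and its part in the level was not tested.

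The wider costimulatory network gave 0 calls as well, in edgeR, in DESeq2 and in the other alternatives run, for each of the 6 related lists. Of 17 genes listed as other costimulatory receptors, whichever way each acts in these cells, 12 were tested. Fold changes were above 0 for 6 and below 0 for 6, with a median log2 fold change of 0.00. In edgeR, 0 passed the threshold and 1 had an unadjusted p under 0.05 (Cd160). Itgal and Itgb2, the chains of the adhesion receptor LFA-1, were the most abundant at 640 and 633 CPM on average, with log2 fold changes of 0.05 and 0.09. Cd160, a receptor of HVEM, had the largest, -0.35 (interval -0.67 to -0.02, adjusted p = 0.9998), at 19.0 ± 2.86 CPM in Furin KO against 24.2 ± 1.95 CPM in WT, and Tnfrsf25 (DR3), a TNF receptor family member that binds TL1A, had -0.32. The genotypes did not overlap at 1 of the 12, Cd5, named after its values were seen, at 277 CPM in Furin KO and 303 CPM in WT. Tnfrsf8 (CD30) and Havcr1 had 0 counts in all libraries, which allows a level of up to 0.0208 CPM over the whole series (3 counts, counting error only).

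Ligands of the receptors were tested for 7 of 12 listed genes, with 1 fold change above 0, 6 below, a median of -0.15, 0 calls and 0 unadjusted p under 0.05. Cd48, the ligand of CD2, was the most abundant at 181 CPM, and Tnf, the ligand of TNFR2, had 36.6 CPM. Icosl, the ligand of ICOS, had 12.8 ± 2.35 CPM in Furin KO and 9.47 ± 2.09 CPM in WT (log2 fold change 0.44, interval -0.01 to 0.89, edgeR adjusted p = 0.9998). Cd86, a ligand of CD28, had 23.5 ± 2.87 and 26.9 ± 2.15 CPM (log2 fold change -0.19). Of the B cell genes that could accompany Cd86, Ms4a1 and Cd22 had 0 counts and Cd79a at most 1.34 CPM, while Cd79b had 22.8 ± 3.34 CPM in Furin KO and 23.4 ± 3.98 CPM in WT. Cd70, Tnfsf18 and Nectin2, ligands of CD27, GITR and CD226, had 0 counts.

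The signalling genes below the receptors had small fold changes. Of 19 genes of CD28 and CD2 signalling, 6 were above 0 and 13 below, with a median log2 fold change of -0.03, a range of -0.15 to 0.08, 0 calls and 0 unadjusted p under 0.05. Pik3cd, the PI3 kinase catalytic subunit of lymphocytes, was at 1710 CPM and Lck, the kinase bound to CD8 and CD28, at 1485 CPM on average, with log2 fold changes of 0.05 and -0.0049. Bcl10, an adaptor on the way to NF-kB, had -0.15 and Pdpk1, a kinase that activates AKT, -0.12. Of 17 genes of TNF receptor signalling, 5 were above 0 and 12 below, with a median of -0.01, 0 calls and 0 unadjusted p under 0.05. Nfkb1 and Traf1 were the most abundant, with 0.15 and 0.12. Tnfaip3 (A20), an NF-kB inhibitor that is itself induced early, had -0.37 and Siva1, which binds the tail of CD27, -0.19. Tnfaip3 was between 85.4 and 86.9 CPM in the 3 libraries low in Fos and between 116 and 241 CPM in the others. Of the early response genes, 1 was above 0 and 9 below, with a median of -0.14, and 0 of 10 passed, also unadjusted. Junb and Zfp36 were the most abundant, at 875 and 737 CPM, and Nr4a1 and Fosb had log2 fold changes of -0.31 and -0.29.

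Of the inhibitory receptors that share ligands or pathways with these receptors, 5 of 9 were tested, 3 with fold changes above 0 and 2 below, with a median of 0.26, and 0 passed (1 unadjusted, Ctla4). Cd96, which competes with CD226, had -0.05 at 293 CPM, and Btla had 0.26 (interval -0.01 to 0.53, edgeR adjusted p = 0.9998) at 83.9 ± 10.98 CPM in Furin KO against 70.1 ± 11.4 CPM in WT. Tigit had 17 counts in all libraries together.

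Some markers of other cells that carry these receptors were near 0, and others were expressed. Regulatory T cells express OX40, GITR and ICOS highly. Of the list of regulatory and CD4 T cells, 5 of 7 genes were tested and 0 passed (1 unadjusted, Izumo1r). Izumo1r had the only fold change above 0, and the other 4 tested were below. The median log2 fold change was -0.25. Cd4 was at most 0.892 CPM and Foxp3 between 0 and 2.28 CPM. Ikzf2 ran from 4.36 to 14.6 CPM and Ikzf4 from 4.16 to 8.19 CPM. The summed level of that list was 66.5 to 80.0 CPM in Furin KO and 55.1 to 62.9 CPM in WT, most of it from Izumo1r at 56.3 CPM in Furin KO and 39.9 CPM in WT. Its part in the levels of Tnfrsf4, Tnfrsf18 and Icos was not tested. In the list of activated or memory CD8+ T cells 0 of 9 genes passed, 8 had fold changes above 0 and 1 below, and 1 had an unadjusted p under 0.05: Tbx21, a transcription factor of effector cells, at 6.73 ± 1.501 CPM in Furin KO and 2.02 ± 0.826 CPM in WT (log2 fold change 1.74, edgeR adjusted p = 0.171). Its part in the receptors' levels was not tested. That list had summed levels of 393 to 429 CPM in Furin KO and 383 to 402 CPM in WT, mostly Il2rb and Id2. Eomes ran from 33.6 to 51.4 CPM over the libraries, and Cd44 was at most 2.72 CPM. Of the NK cell list, Ncr1 and Klra8 had 0 counts and Nkg7, which CD8+ T cells also express, made up nearly all of the sum of 264 to 361 CPM in Furin KO and 283 to 327 CPM in WT. Myeloid and dendritic cell genes summed to at most 4.61 CPM in Furin KO and 4.67 CPM in WT, with Csf1r, Cd14 and Xcr1 at 0 counts.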

How the data were processed

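The authors deposited raw counts per gene for 8 libraries of total RNA. Per the submitters' processing notes, FastQC, Trim Galore, STAR and DESeq2 1.24.0 were used with GRCm38; the counting program, its annotation and its use of strand are not stated in the sources used here. Columns were matched to samples by title. Of 55573 Ensembl IDs, 55480 matched GENCODE M21.

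Genotype was tested in R 4.3.3 by the two-sided quasi-likelihood test of edgeR 4.0.16, after TMM scaling and filterByExpr and without covariates; limma was 3.58.1. CPM uses TMM-scaled library sizes, and 95% intervals come from the same fit. Exact permutation tests used log2(CPM + 1).

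The 9 members and all lists were chosen with earlier results of these data known. The receptors were all named; of each related list the 2 genes of highest mean CPM and the 2 of largest fold change at a mean CPM of at least 5 were named, together with the 2 genes most correlated with each receptor. Markers given as levels, Ctla4 and Tigit were picked after their values were seen. Alternatives were other size factors, filters, DESeq2 1.42.0, limma-voom, age or library set as a factor, the 8-week libraries alone and each library left out; leaving out the 3 libraries low in Fos was added after the data were seen. Tnfrsf4 and Tnfrsf9 had the widest intervals of the 9 and the largest counting errors, 6.89% and 9.22% at their mean counts. Their coefficients of variation between libraries were larger, at 19.9% and 27.5%. Some marker genes are not reported here.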

Additional observations from a re-analysis of the deposited data

How the results depend on the processing

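0 of the 9 receptors were called in each of the 18 alternatives, in which between 3 and 38 genes passed over all genes (38 in edgeR without the filter on low counts, 0.19% of the genes tested there). The lowest adjusted p of any receptor in any alternative was 0.92 (Icos), and the lowest unadjusted p 0.0958 (Cd28). Icos, Cd27, Cd2 and Cd226 kept their direction in all 18. Log2 fold changes of the other 5 changed sign in some; the related lists had 0 calls in each. Without WT replicate 2, Cd28 had 0.0484. Tnfrsf4 ran from -0.0598 (without the 3 libraries low in Fos) to 0.343, with -0.0245 without WT replicate 2, -0.0054 without Furin KO replicate 2, -0.0533 without WT replicate 3 and -0.00631 without Furin KO replicate 4. With only libraries of 8 weeks, Tnfrsf9 had -0.0359 and Tnfrsf18 -0.0414. Tnfrsf9 also had -0.0371 without WT replicate 1 and -0.000876 without Furin KO replicate 5, and Tnfrsf18 had -0.0916 and -0.0034 without WT replicate 1 and Furin KO replicate 2. Tnfrsf1b had -0.00271 with limma-voom, -0.0355 with age and -0.037 with the library set as a factor, -0.0838 without the 3 libraries low in Fos, and -0.0139, -0.0399, -0.0333 and -0.016 without WT replicate 1 and Furin KO replicates 2, 3 and 4. With 1 library left out, the ranges were -0.261 to 0.0484 for Cd28, -0.0533 to 0.307 for Tnfrsf4, -0.0371 to 0.349 for Tnfrsf9, -0.0916 to 0.162 for Tnfrsf18 and -0.0399 to 0.082 for Tnfrsf1b. These main values lie near 0 against their errors, and the cause of each sign was not tested. The difference of the summed level ran from -54.9 to 5.85 CPM with 1 library left out, against a pooled SD of 61.9 CPM. No paired analysis was possible because the replicate numbers follow accession order and pair no samples; the library set, entered as a factor above, was found from the counts and is no pairing given by the labels.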

Other observations

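For each receptor, the gene whose log2(CPM + 1) followed it most closely over the 8 libraries, among 9274 other genes with a mean CPM of at least 5, is given as a description. These correlations are the highest of many over few libraries that differ in depth and set. Cd28 was closest to Hbp1 (Pearson r = 0.985) and then Cybc1 (0.968). Icos was closest to Tgif2 (0.934) and Mettl6 (0.923), and Cd27 to Uba1 (0.929) and Coq4 (0.927). Among the receptors of low level, Tnfrsf9 was closest to Id3 (0.980), an inhibitor of E proteins, and Pomgnt1 (0.969), and Tnfrsf4 to Rrnad1 (0.933) and Zfp365 (0.922). For Tnfrsf18 the closest were Psmg4 (0.985) and 2310011J03Rik (0.981), and for Tnfrsf1b Gmfg (0.954) and Gm20324 (0.952). Cd2 was closest to Fbxo9 (0.947) and Vps29 (0.940), and Cd226 to Cep170 (0.975) and Eny2 (0.963). No receptor had another of the 9 among its 2 closest genes.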
